A study of Mus musculus with 6 samples.

Results

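The Hox genes are a family of homeobox transcription factors that lie in 4 chromosomal clusters, A to D. They were examined here in embryonic forebrain, a tissue in front of their usual territory, as a control for tissue from further back in the body. The members were all genes whose symbol is Hox followed by a cluster letter and a paralog number and which at least 1 probe set names alone. These were 33 of the 18194 genes measured, against 39 protein-coding Hox genes in RefSeq. Hoxb8 and Hoxd4 are named only together with a neighbouring Hox gene, and the rest are not analysed here. The 33 genes have 48 probe sets (groups of short oligonucleotides read out as 1 value), and each gene was followed through the one with the highest mean signal.

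The 6 arrays came from hand-dissected mouse forebrain rostral to the caudal end of the lateral ventricles. One genotype was wild type and the other was Fezf1-/- Fezf2-/-, called the knockout below, which lacks Fezf1 and Fezf2, related zinc-finger repressors made in the anterior neural plate. Embryos of both genotypes were taken at embryonic day 9.5 (E9.5), day 10.5 (E10.5) and day 12.5 (E12.5). Each genotype has 1 array per age, so no value at a single age has a replicate, and series of 3 values below are in this order of age. The labels do not say how many embryos went into an array, and they name no strain. As a check of the labels, the wild-type series of Fezf2 signals was 66.2, 91.1 and 314, and the knockout series 0.474, 0.599 and 2.36. For Fezf1 these were 227, 89.3 and 225 against 86.3, 56.1 and 79.1. Whether the probe sets lie in the deleted parts was not stated in the labels.

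In vertebrate embryos Hox genes are switched on in an order that follows their position in the cluster, so that genes with low paralog numbers reach furthest forward, into the hindbrain, and those with high numbers mark the trunk, tail and distal limb. Forebrain and midbrain lie in front of all these domains and are set apart by other homeobox genes such as Otx2 and Six3. Polycomb complexes hold silent Hox clusters in a repressed chromatin state, Trithorax proteins maintain active ones, and the TALE homeodomain proteins of the Pbx, Meis and Pknox families bind DNA together with Hox proteins.

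Start regions of 22 of the 39 Hox genes were found in the RefSeq promoter table (GRCm38.p6), as 24 windows of 300 bases. Hox windows often held many CpG dinucleotides: 45.8% were CpG-rich (GC over 50% and observed over expected CpG above 0.6), against 33.3% of the 32851 windows of all genes, and the median number of CpG was 14.5 against 7. They differed widely among themselves, from 4 in Hoxa9, Hoxd4 and 1 of the Hoxd11 windows to 45 in Hoxa13. The 250 bases before the start are shown for 2 genes that the values below turn on, Hoxa5, which lay above the array median throughout, and Hoxa9, which differed between the genotypes at 1 age. Capitals mark CpG on the strand of the gene, 28 in Hoxa5 (chr6:52204588-52204837, minus strand) and 3 in Hoxa9 (chr6:52227371-52227620, minus strand).
Hoxa5: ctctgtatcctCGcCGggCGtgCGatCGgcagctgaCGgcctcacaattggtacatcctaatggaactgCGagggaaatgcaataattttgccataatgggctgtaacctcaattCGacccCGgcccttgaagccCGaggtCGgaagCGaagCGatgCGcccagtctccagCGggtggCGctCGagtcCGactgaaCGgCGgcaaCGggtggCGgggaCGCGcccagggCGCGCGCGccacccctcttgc
Hoxa9: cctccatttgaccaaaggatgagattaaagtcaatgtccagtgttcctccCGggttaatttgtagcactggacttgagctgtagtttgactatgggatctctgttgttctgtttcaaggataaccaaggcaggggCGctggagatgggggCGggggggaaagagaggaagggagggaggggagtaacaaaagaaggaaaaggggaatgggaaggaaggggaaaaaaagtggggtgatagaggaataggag
Methylation and chromatin were not measured, so these sequences are a description of the genes and bear on no value.

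The level of a gene was its deposited signal divided by the median of all 45101 values of the same array, so a level of 1 is the middle of the array. A probe set's signal also depends on its own oligonucleotides. Levels therefore place a gene among the values of its array and do not rank transcripts by abundance. No detection calls were used, and a low signal cannot be told from none. Array medians ran from 14.2 (wild type, E10.5) to 37.1 (knockout, E12.5).

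Hox genes lay in the lower part of every array. Of the 33 members, 1 was above the array median in wild type at E9.5 and 1 in the knockout, against 61% and 61.4% of all genes. At E10.5 it was 3 in wild type and 2 in the knockout, against 62.1% and 61.2%. At E12.5 it was 1 in each genotype, against 59.4% and 59.7%. Hoxa5 was in each of these counts, Hoxc6 was above the median on both E10.5 arrays, and Hoxa9 on the wild-type E10.5 array. The other 30 genes were below the median on all 6 arrays, while 12720 of all 18194 genes were above it on at least 1 array. The median level of the family was 0.250, 0.244 and 0.156 on the wild-type arrays, and 0.332, 0.179 and 0.204 on the knockout arrays.

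**Figure D1:**
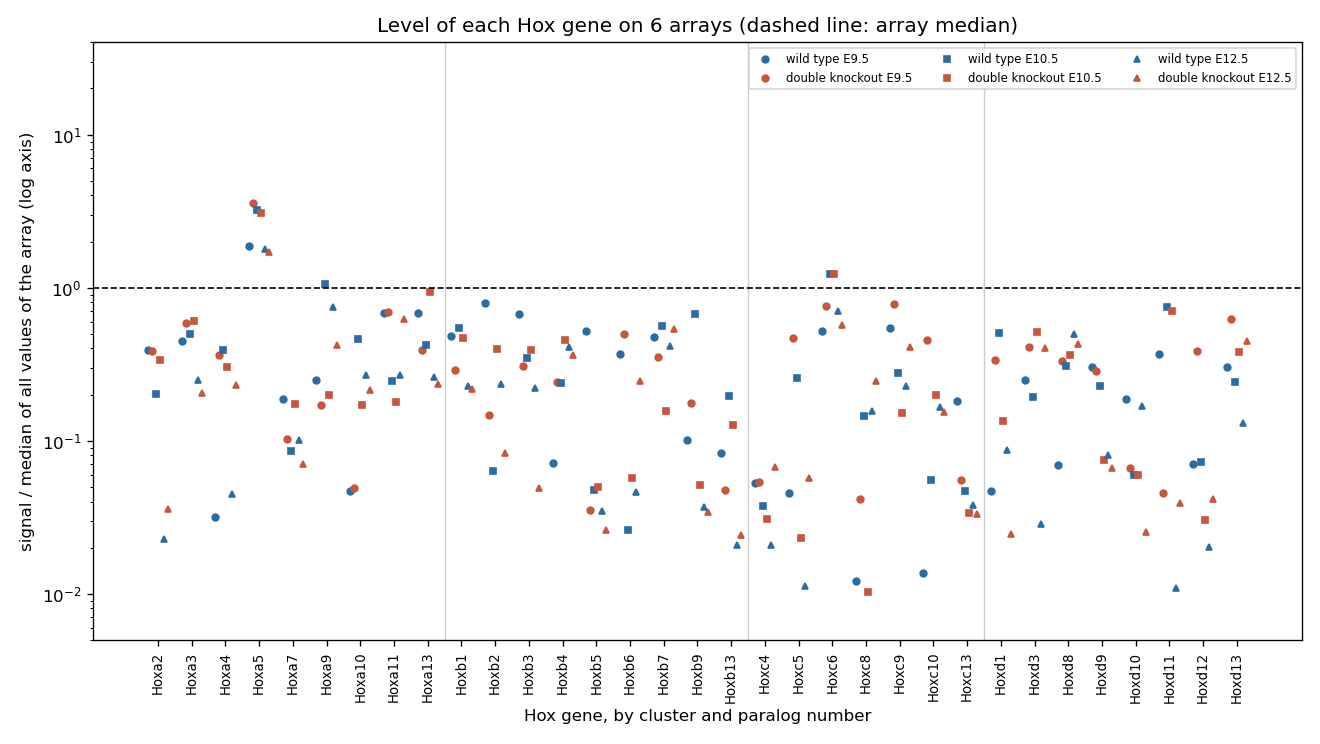
Level of each of the 33 Hox genes on the 6 arrays (y axis: signal divided by the array median, log scale; x axis: genes by cluster and paralog number; colour: genotype; symbol shape: age; 1 point per array). Hoxa5 is above the dashed median line on all 6 arrays, Hoxc6 on 2 and Hoxa9 on 1, and the other 30 genes are below it throughout.

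As a second reference, 110 genes for olfactory, vomeronasal and taste receptors and keratin-associated proteins, which are not expected in early forebrain, were measured in the same way. Their median level ran from 0.130 to 0.297 over the arrays, and between 13 and 17 Hox genes lay below that median on each array. The mean level over the 6 arrays had a median of 0.228 over the Hox genes, 0.207 over these reference genes and 2.33 over all genes. Hox genes above the 95th percentile of the reference genes numbered 1, 3 and 3 on the wild-type arrays, where 62.1%, 62.2% and 66% of all genes were, and 1, 4 and 1 on the knockout arrays, where 59.6%, 67.8% and 65.5% were. They were Hoxa5 on every array and Hoxc6 on both E10.5 arrays and in wild type at E12.5. Hoxa9 was among them in wild type at E10.5 and E12.5. Hoxa13 and Hoxd11, genes of the limb and the posterior trunk, were so in the knockout at E10.5. The percentile itself stood lower on that array, at a level of 0.676 against 0.994 on the wild-type E10.5 array. Hoxd11 was not higher in the knockout by level (0.706 against 0.745), whereas Hoxa13 was (0.937 against 0.420). At the other ages Hoxa13 was lower in the knockout, 0.392 against 0.683 at E9.5 and 0.235 against 0.261 at E12.5.

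The anterior paralogs, 1 to 3, include the genes that reach into the hindbrain. The 7 measured had mean levels from 0.190 (Hoxd1) to 0.431 (Hoxa3), and none was above the array median on any array. Hoxb1, which marks a single segment of the hindbrain, gave wild-type signals of 10.4, 7.71 and 7.63 and knockout signals of 6.28, 7.44 and 8.02, which overlap. Hoxa2, the Hox gene that reaches furthest forward, gave 8.32, 2.85 and 0.764 (wild type) and 8.30, 5.38 and 1.32 (knockout). Both genotypes had their lowest Hoxa2 value at E12.5. Hoxb2, Hoxb3 and Hoxd3, further genes of the hindbrain, stayed at or below signals of 17.0, 14.5 and 14.8.

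The central paralogs, 4 to 8, pattern the neck and the trunk. The 12 measured had mean levels from 0.0438 (Hoxc4) to 2.54 (Hoxa5). Hoxc4, a gene of the cervical region, had signals between 0.489 and 2.49, all far under the array medians. Hoxc8, a gene of the brachial spinal cord, ran from 0.163 to 9.14, and Hoxb5 and Hoxb6 from 0.677 to 11.2 and from 0.371 to 10.8. Only Hoxa5 and Hoxc6 in this class passed the median on any array.

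Hoxa5, which patterns the neck and the brainstem and is needed for lung development, gave wild-type signals of 39.9, 45.4 and 60.6 and knockout signals of 78.0, 48.9 and 62.9. The knockout value at E9.5 was the highest of the 6, and the other 5 lay between 39.9 and 62.9. These values stood at percentiles 58.8 to 71.6 of their arrays. They came from a probe set with the suffix x, which Affymetrix gives to probe sets with oligonucleotides that can also bind other transcripts. The other Hoxa5 probe set, which has no such suffix, gave 1.51, 1.17 and 7.04 (wild type) and 3.69, 1.06 and 6.54 (knockout), below the median on every array. Of the 2038 single-gene probe sets with this suffix on the array, 64.5% had a mean level above 1, against 52.6% of the 27005 with no letter suffix. For the other suffixes the share was 71.5% for a and 75.7% for s. Cross-binding was not tested, and the pair of probe sets places Hoxa5 on opposite sides of the median.

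Hoxc6, a gene of the thoracic region and the forelimb level, was also read through a probe set with the suffix x. It gave 11.1, 17.3 and 23.8 (wild type) and 16.5, 19.6 and 21.0 (knockout), and the genotypes overlap. The second probe set gave 4.70, 13.1 and 10.4 (wild type) and 32.6, 8.69 and 12.8 (knockout), so its highest value was in the knockout at E9.5, the single one above the array median. The last of the 3 probe sets stayed between 1.33 and 10.0, also with its highest value in that array. The first probe set, in contrast, was highest in wild type at E12.5.

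The posterior paralogs, 9 to 13, mark the lower trunk, the tail and the distal limb. The 14 measured had mean levels from 0.0650 (Hoxc13, a gene of hair and nail) to 0.488 (Hoxa13, a gene of the hand and foot). Hoxa9, known from the posterior trunk and from blood progenitors, gave wild-type signals of 5.30, 14.9 and 25.0 and knockout signals of 3.69, 3.17 and 15.5. Wild type was higher at each age, but the ranges of the genotypes overlap. The second Hoxa9 probe set gave 0.616, 3.29 and 4.78 (wild type) and 3.93, 0.535 and 1.33 (knockout), higher in the knockout at E9.5. Hoxd10 and Hoxc10, genes of the lumbar spinal cord, ran from 0.848 to 5.72 and from 0.294 to 9.85. By cluster, the median of the mean levels was 0.431 in A, 0.286 in B, 0.144 in C and 0.244 in D, with no gene of clusters B and D above the median on any array.

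**Figure D2:**
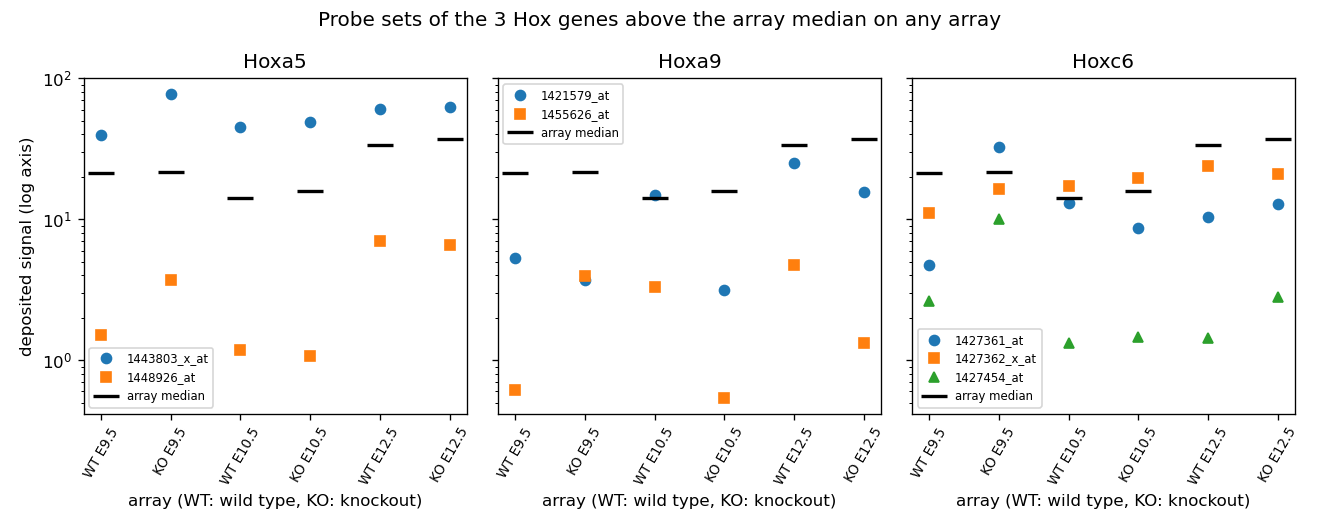
Deposited signal (y axis, log scale) of every probe set of Hoxa5, Hoxa9 and Hoxc6 on the 6 arrays (x axis), with the median of all values of each array as a black bar. Only 1 of the 2 Hoxa5 probe sets is above the bars, and of the 48 Hox probe sets 4 are above a bar on any array, all of them shown here.

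Further probe sets of the clusters were low as well. The probe set shared by Hoxb7 and Hoxb8 had signals from 1.07 to 17.6, and the pair shared by Hoxd3 and Hoxd4 from 0.370 to 20.3. Antisense transcripts of the clusters were measured for 3 loci, and their highest signals were 21.3 for Hoxb5os, 8.13 for Hoxa11os and 6.73 for Hoxd3os1. None of these values was above the median of its array.

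The genotypes were then compared for each Hox gene. Differences were taken as log2(signal + 6.50) after quantile normalization, knockout minus wild type, and a gene was counted at an age when the difference was 2-fold or more and its brighter signal exceeded the median of all values (24.0). No Hox gene was counted at E9.5, where 0.874% of all genes were higher and 0.742% lower in the knockout. At E10.5, 1 was counted, Hoxa9, lower by 1.50 (-1.50), where 0.813% of all genes were higher and 1.1% lower. Taken from deposited values its difference was -1.14. It was not counted there because its brighter signal (14.9) did not exceed the median of all deposited values of the 6 arrays. The second Hoxa9 probe set gave -0.70 after quantile normalization. The summed level of 6 erythroid markers at this age was 1585 (wild type) and 1530 (knockout), and its part in the Hoxa9 values was not tested. At E12.5 no Hox gene was counted, against 0.319% and 0.236% of all genes.

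Without regard to signal, 5 of the 33 Hox genes were 2-fold or more apart at E9.5, 3 on the E10.5 arrays and 1 at E12.5. Of all genes 5.79%, 7.52% and 3.33% were, and of the 110 reference genes 9, 11 and 4. The largest differences at E9.5 were those of Hoxc10 (1.29) and Hoxb2 (-1.38), at E10.5 those of Hoxb2 (1.001) and Hoxb9 (-1.50), and at E12.5 that of Hoxd3 (1.18), all with both signals under the array medians. Hoxb2 thus pointed in opposite directions at E9.5 and E10.5. The family had 19, 14 and 14 genes with a positive difference at the 3 ages, with medians of 0.02, -0.03 and -0.06, beside medians of 0.01, -0.01 and 0.01 over all genes. On deposited values the family's medians were 0.03, 0.02 and 0.01 with 19, 17 and 18 genes positive, so the direction at E10.5 and E12.5 turned with the scaling, while the medians of all genes were 0.07, 0.20 and 0.19. Between the genotypes, the log2 values of the 33 Hox genes correlated at 0.570, 0.712 and 0.793 at the 3 ages. Without Hoxa5 the correlations of the other 32 were 0.325, 0.546 and 0.695. Those of the reference genes, with none left out, were 0.714, 0.563 and 0.619, and those of all genes 0.980, 0.975 and 0.986. These are correlations across genes of arrays on the same probe sets and are given as a description.

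**Figure D3:**
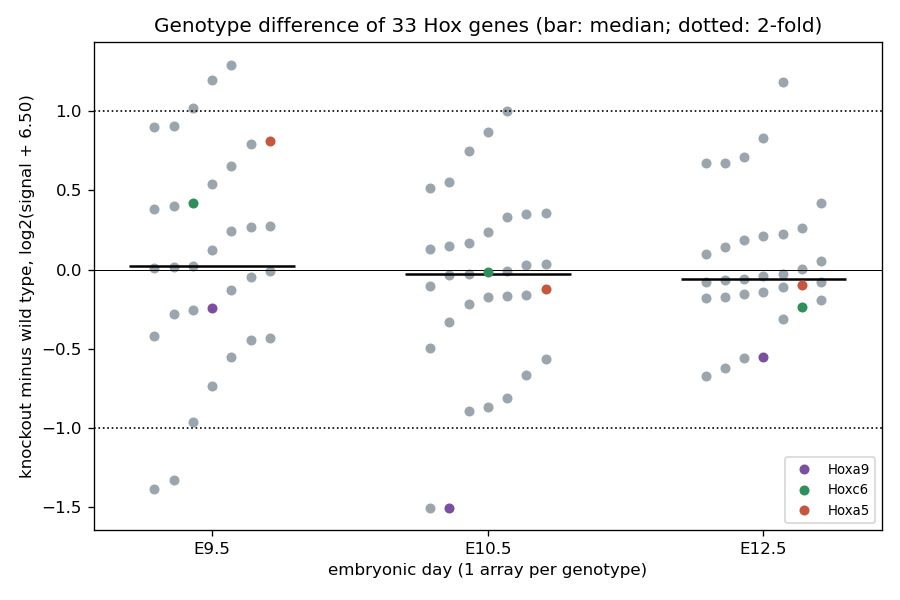
Knockout minus wild type for each of the 33 Hox genes at each age (x axis) on the log2(signal + 6.50) scale after quantile normalization (y axis), 1 array per genotype. The median bars are at 0.02, -0.03 and -0.06, and the coloured genes are those with a signal above the array median on any array.

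Hoxa5 was 0.81 higher in the knockout at E9.5 and 0.12 and 0.10 lower at E10.5 and E12.5 (-0.12 and -0.10), and its second probe set gave 0.34, -0.04 and -0.13. The direction of Hoxa5 at E10.5 and E12.5 turned with the scaling: from deposited values the differences were 0.87, 0.09 and 0.05, higher in the knockout at each age, and with a common trimmed mean 0.79, -0.17 and -0.14. Markers of surrounding tissue also differed at E9.5: the summed level of the 12 measured head mesenchyme markers was 280 in the knockout and 189 in wild type, and that of 5 surface ectoderm markers 41.4 and 34.0. At E10.5 these sums were 323 against 276 and 55.1 against 38.2, and at E12.5 they were 55.9 against 74.1 and 2.87 against 3.75. Such sums are weighted by the brightest genes, and Col3a1 had a mean level of 72.0. After quantile normalization the median difference of the mesenchyme markers was 0.43, 0.07 and -0.44 in order of age. At E10.5, 2 of the 12 were counted as at least 2-fold lower in the knockout (Col1a1 and Alx4), where 1.1% of all genes were. Among the mesenchyme markers Alx4 had the lowest mean level, 0.545, and 6 of the 12 were above the median on all arrays. The part of such tissue in the Hoxa5 values was not tested. In pieces of tissue, fewer cells with a transcript and less of it per cell cannot be told apart.

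The test across ages used limma with age as a block. The filter on dim genes, a mean log2 value above the median of all probe sets, was passed by 11091 genes and by 1 Hox gene, Hoxa5. It differed by 0.20 ± 0.21 (limma's moderated SE, 3 pairs, higher in 1 of 3 after quantile normalization; limma adjusted p = 0.999). From deposited values it was 0.34, higher in 3 of 3 pairs (limma adjusted p = 0.260). Of the tested genes 0.0721% were called. With all 18194 genes in the fit, 0 Hox genes were called by limma (lowest adjusted p = 0.986), and 0.0055% of all genes were called. At an unadjusted p under 0.05 there were 2 Hox genes of 33 and 4.56% of all genes. Those 2 were Hoxd3, which stood 0.77 ± 0.28 higher in the knockout, and Hoxa9, which stood 0.76 ± 0.33 lower (-0.76). The same direction at all 3 ages was seen in 7 of the 33 Hox genes, 3 higher (Hoxb6, Hoxd3 and Hoxd13) and 4 lower (Hoxa9, Hoxb1, Hoxc13 and Hoxd9), beside 24.8% of all genes, after quantile normalization. From deposited values Hoxb1 was higher in the knockout at E12.5 (0.04), while the other 6 kept their direction at each age.

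The age difference, E12.5 minus E9.5, was taken from the same fit, with 2 arrays per age. Of the tested genes 62.8% were called. Hoxa5 differed by -0.60 ± 0.26 and did not pass (limma adjusted p = 0.0673). Its difference was -0.15 within wild type and -1.06 within the knockout, and from deposited values the fitted difference was 0.12. With all genes in the fit, Hoxa2 was the 1 Hox gene called, lower at E12.5 by 1.03 (-1.03 ± 0.32; limma adjusted p = 0.0333; lower in both genotypes), where 21.6% of all genes were called lower. All of its signals were under the array medians. No Hox gene changed at least 2-fold in one direction in both genotypes, against 13.5% of all genes. Hoxa2 only just missed this cut, at -1.06 within wild type and -0.999 within the knockout.

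Genes of the forebrain and genes that act with or on Hox clusters were measured for comparison, from lists written for this purpose. Of 13 rostral forebrain markers measured 10 were above the median on all 6 arrays, among them Lhx2, Otx2, Pax6 and Six3, and the lowest mean level was that of Hesx1 (1.17). TALE cofactors were above the median on all arrays in 7 of 8 cases, with mean levels from 0.789 for Pbx4 to 36.8 for Pbx3. Polycomb genes were so in 14 of 16 cases, from 0.672 for Cbx7 to 82.6 for Ezh2, the histone methyltransferase of the complex. All 9 Trithorax and demethylase genes measured were above the median throughout. Of all single-gene probe sets, between 41.6% (no letter suffix) and 67.3% (suffix s) were above it on all arrays. Across the genotypes 0 genes of these lists passed with limma (12 forebrain, 7 TALE, 15 Polycomb and 9 Trithorax and demethylase genes tested). Only 0.0721% of all tested genes passed, so lists of this size could be expected to have none. The median differences of the last 3 lists lay between -0.13 and 0.09 over the ages. Those of the forebrain markers were -0.11, -0.31 and -0.17. At E9.5, 1 of 13 was counted as at least 2-fold lower in the knockout, Rax (-1.39), where 0.742% of all genes were. At E10.5, 4 of 13 were counted as lower (Emx1, Emx2, Lhx2 and Dmrta1), where 1.1% of all genes were. On deposited signals at E10.5, wild type first, Lhx2 (507 and 287) and Emx2 (255 and 141) were less than 2-fold apart. Emx1 (44.2 and 9.40) and Dmrta1 (57.5 and 24.2) were more than 2-fold apart. From E9.5 to E12.5, 25.9% of the tested genes were called higher and 36.9% lower, a split that became 49.2% and 15% on deposited values and 29.9% and 31.2% with a common trimmed mean. Against this, 3 TALE genes rose and 3 fell, with Meis3 up by 1.03 ± 0.17 and Pknox2 at -1.24 ± 0.14 (limma adjusted p = 6.83e-04 and 4.55e-05). Of the Polycomb genes 9 rose and 2 fell, with Cbx6 up by 1.04 ± 0.11 and Cbx2 at -0.95 ± 0.11 (limma adjusted p = 4.27e-05 and 6.46e-05). On deposited values the counts were 3 up and 1 down for TALE and 11 up and 1 down for Polycomb, and with a common trimmed mean 2 up and 4 down and 6 up and 2 down. These 4 named genes kept their direction under both scalings.

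**Figure D4:**
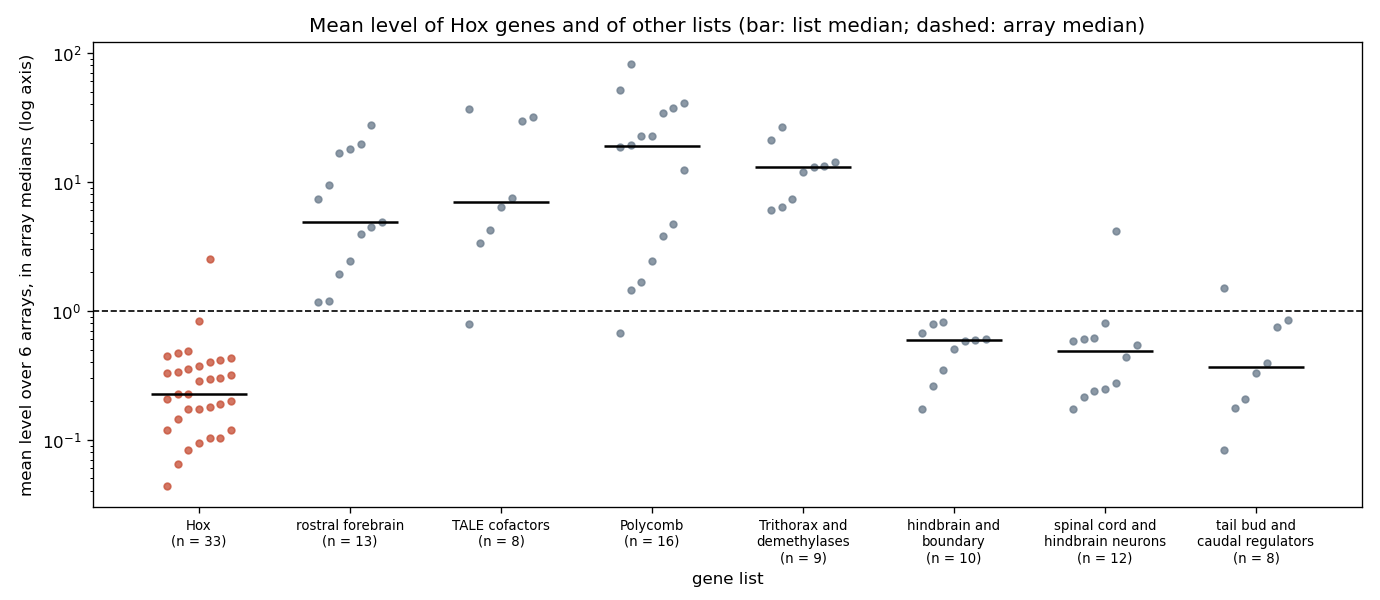
Mean level over the 6 arrays (y axis, in array medians, log scale) of each gene in the Hox family and in 7 other lists (x axis, with the number of genes measured). Bars are list medians: 0.228 for Hox, 4.85 for rostral forebrain, 6.97 for TALE cofactors and 19.0 for Polycomb, and between 0.364 and 0.591 for the 3 caudal lists.

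Caudal genes outside the Hox clusters were mostly under the array medians too. For comparison, 12720 of all 18194 genes were above the median on at least 1 array. Of 10 genes of the hindbrain and its front boundary none was above the median on all arrays and 5 were above it on none. Gbx2 (70.0 and 73.3, wild type first) and Gbx1 (46.9 and 58.3) were above it at E12.5 only. Which cells gave these signals was not tested. Pax5 (27.2) and Egr2 (27.9) were above the median in wild type at E9.5 only, and Fgf3 (31.3) in the knockout at E9.5 only. Of 12 genes of spinal cord and hindbrain neurons 8 were above it on no array, and Gata2, which is also a gene of midbrain and blood, was above it on all. Of 8 tail bud and caudal regulators 5 were above it on none, including the 3 Cdx genes, which activate Hox genes in the tail bud (highest signal 8.08), while Wnt3a, also a gene of the cortical hem, was above it on all. By the single-age rule, no gene of the hindbrain or spinal cord list was counted as 2-fold apart between the genotypes. In the tail bud list Msgn1 was counted as lower in the knockout at E10.5 (-1.39) and Gdf11 at E12.5 (-1.65). Of all genes 1.1% and 0.236% were. En1 and En2, which mark the midbrain and hindbrain boundary, were under the median on every array. En1 gave 5.27, 0.363 and 0.649 (wild type) and 8.86, 0.591 and 11.3 (knockout). En2 gave 7.42, 8.46 and 0.596 (wild type) and 9.13, 0.80 and 5.47 (knockout), lower in the knockout at E10.5 and higher at the other ages. Retinoic acid, a signal that induces anterior Hox genes, was represented by 8 genes, of which 2 were above the median on all arrays. Aldh1a3 was the 1 gene of the 8 counted as 2-fold apart, higher in the knockout at E10.5 (1.08), where 0.813% of all genes were. Of the 5 tested, 5 fell from E9.5 to E12.5 under each of the 3 scalings, among them the synthesis gene Aldh1a3 (-4.91 ± 0.29, limma adjusted p = 1.25e-06) and the receptor gene Rarb (-1.69 ± 0.20, limma adjusted p = 7.54e-05). Of all tested genes 36.9% fell after quantile normalization, 15% on deposited values and 31.2% with a common trimmed mean. Markers of surrounding tissue fell over the same interval, 10 of 11 tested for head mesenchyme and 4 of 4 for surface ectoderm (Twist1 -4.55 and Krt18 -3.77). On deposited values it was 8 of 11 for head mesenchyme and still 4 of 4 for surface ectoderm. The part of such tissue in the values of the retinoic acid genes was not tested.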

How the data were processed

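Total RNA from 6 dissections was labelled with biotin in a one-cycle procedure and hybridised to Affymetrix arrays. The authors deposited 1 linear intensity per probe set and array, and the submitters' processing notes name MAS5. Its scaling target and version are not stated there. The arrays had different trimmed means (74.3 to 162), so the differences were taken after quantile normalization in R 4.3.3, while levels used the deposited values.

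Probe sets were named through the supplied platform annotation: 34958 name 1 gene, 932 several and 9211 are unnamed here. By Entrez identifier 34754 matched RefSeq GRCm38.p6, with 0 symbols changed. The pseudocount of 6.50 is the lower quartile of all values and understates the change of dim genes. Genes were tested with limma 3.58.1 (variance trend, 2 residual degrees of freedom, 9.40 after moderation; Benjamini-Hochberg over all genes tested, threshold 0.05), with genotype and age as terms. P-values measure only the spread between these arrays. The fit was also run on data simulated with independent noise, as a check of the code and not of its power for Hox genes. Array number limits the precision. Quantile normalization moves the median genotype difference of all genes, which was 0.07, 0.20 and 0.19 in order of age on the deposited values.

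Members and lists were chosen with earlier results of these data known. Named genes were members above the median by mean level, 2-fold apart at an age or passing a test, with examples of the others added after their values were seen, and from the other lists those with the highest or lowest mean level or passing a test, with further examples. The alternatives were scaling, pseudocount, filter, probe set, signal floor, reference level, age block, genotype term, variance trend and leaving out each age.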

Additional observations from a re-analysis of the deposited data

How the results depend on the processing

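No Hox gene was called between the genotypes in any of the 12 alternative fits, including those without each age pair in turn (0 to 0 genes). All except the fit without a filter tested at most 1 Hox gene, and the fit with a filter at the upper quartile tested 0. Few genes of any kind were called in these fits. The number ran from 0 of 11091 without the age block to 49 of 11091 without the E9.5 pair. The absence of a Hox call in them is therefore little evidence of stability. The fitted Hoxa5 difference ran from -0.11 without the E9.5 pair to 0.36 without the E10.5 pair, so after quantile normalization its direction rests on the E9.5 pair, while from deposited values all 3 pairs were positive. The age difference of Hoxa5 turned to 0.12 on the deposited values, where the median of all tested genes was 0.40. Without the filter on dim genes, 1 Hox gene was called over age. Hox genes with a mean level above the reference numbered 1, but 0 with second-brightest probe sets (11 genes have one) and 2 against the 95th percentile of the reference genes. Those above it on at least 1 array numbered 3, but 1 with second-brightest probe sets, 1 with the mean of all probe sets and 5 against that percentile. The single 2-fold call at E10.5 became 0 on deposited values, with a common trimmed mean, with pseudocount 32, with the mean of all or the second-brightest probe sets and with a floor at the upper quartile, and stayed 1 with pseudocount 1. On deposited values (-1.14) and with the trimmed mean (-1.49) the signal floor, and not the size of the difference, removed the call. Without a signal floor the counts were 5, 3 and 1 in order of age, and with second-brightest probe sets 1 at E9.5, that of Hoxc6. Within a genotype the change with age has no test.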
